A study of Mus musculus with 2 samples.

Results

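The clustered Hox genes are the homeobox genes of the Hoxa, Hoxb, Hoxc and Hoxd clusters. They were taken as every symbol of the deposited table made of Hox, a cluster letter from a to d and a number, which gave 39 of 23988 genes. Of these, 11 belong to the Hoxa cluster on chromosome 6, 10 to Hoxb on chromosome 11, 9 to Hoxc on chromosome 15 and 9 to Hoxd on chromosome 2. RefSeq lists all 39 as protein-coding, and transcripts with other suffixes, such as antisense RNAs, were not counted as members.

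The cells were untransformed myeloid progenitors, abbreviated MP, of C57BL/6 mice. They were grown from lineage-negative bone marrow for 7 days with IL3, SCF and IL6, cytokines that keep early myeloid cells dividing, and carried no transgene named in the labels. The data are RNA-seq of 1 such group with 2 libraries, replicate 2 and replicate 1, and HOXA9/MEIS1 leukaemia cells, which the series title names, were not analysed here. The labels leave out whether separate mice or cultures were used, so the spread between the libraries may be technical. No test is given, since the exact sign-flip permutation of 2 libraries has 0.5 as its smallest p.

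Hox genes encode transcription factors that give embryonic tissues their position along the body axis. Within a cluster the genes are numbered by their order, and those of the same number in different clusters are paralogs. In blood, Hoxa and Hoxb genes are active in stem and early progenitor cells and are shut down as myeloid cells mature. Their proteins bind DNA together with TALE homeobox proteins such as MEIS1 and PBX, MLL complexes keep the genes active, and Polycomb complexes repress them.

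Among the 39 genes, Hoxb4 was at 1 RPKM (reads per kilobase of gene length, scaled to library size) or more in both libraries, and no other member was. That is 1 of 39, against 43.5% of all genes. Hoxa9 stood at 3.13 RPKM in replicate 2 and at 0.0342 RPKM in replicate 1. Hoxc and Hoxd genes had at most 2 reads each in either library. Of the members, 8 were above 0 in both libraries, against 63.3% of all genes. Above 0 in either library were 18 of 39, against 16777 of all 23988 genes, and the other 21 members were listed at 0 in both.

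The start regions of Hoxb4 and Hoxa9, the members with a mean of at least 1 RPKM, are shown because these genes hold most of the Hox reads in each library. The sequences are RefSeq promoter windows of build GRCm38.p6, from 250 bases before to 50 after the annotated start, read 5′ to 3′ on the gene's strand. Hoxb4 is at chr11:96318017-96318316 on the plus strand and Hoxa9 at chr6:52227321-52227620 on the minus strand. Capitals mark CG dinucleotides.
Hoxb4: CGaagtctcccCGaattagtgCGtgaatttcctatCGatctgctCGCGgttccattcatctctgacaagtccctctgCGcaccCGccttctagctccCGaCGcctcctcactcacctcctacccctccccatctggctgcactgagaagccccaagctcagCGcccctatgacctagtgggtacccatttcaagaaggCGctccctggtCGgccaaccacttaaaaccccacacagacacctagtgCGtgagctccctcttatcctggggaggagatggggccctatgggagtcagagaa
Hoxa9: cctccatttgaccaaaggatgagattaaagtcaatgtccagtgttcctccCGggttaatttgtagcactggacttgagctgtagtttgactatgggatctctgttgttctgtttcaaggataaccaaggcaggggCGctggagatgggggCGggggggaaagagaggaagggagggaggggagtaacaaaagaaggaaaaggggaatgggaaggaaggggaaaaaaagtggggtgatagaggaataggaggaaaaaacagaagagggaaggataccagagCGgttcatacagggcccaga
The Hoxb4 window holds 14 CG dinucleotides and is 58.0% G and C, whereas the Hoxa9 window holds 4 and is 49.7% G and C. Over 24 windows of 22 Hox genes the median was 14.5 CG dinucleotides and 57.7% G and C, against 7 and 52.7% over all 32851 windows of the table. The Hoxa9 window thus lies at the low end of the Hox range of 4 to 45 CG dinucleotides, and the Hoxb4 window near its middle.

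Both windows were searched on both strands for TGATTNAT, a site form bound by HOX with PBX, for TGACAG, the core recognised by MEIS proteins, for the E-box CACGTG and for TATAAA. None of the 4 was present in either window. Over all Hox windows TGATTNAT was in 8.33%, against 3.22% of all windows, and TGACAG in 8.33%, against 19.2%. CACGTG was in 20.8% of Hox windows, against 7.15% of all windows. It occurred in the windows of Hoxd1, Hoxd4, Hoxd10, Hoxd11 and Hoxd13, of which all but Hoxd11 were listed at 0 in both libraries. Among Hoxb and Hoxc genes only Hoxb1, Hoxb4, Hoxb8 and Hoxc4 had a window, so the Hox shares describe mostly Hoxa and Hoxd genes. TATAAA was in 16.7% of Hox windows, against 13.6% of all windows. Apart from the TATAAA matches of Hoxd13, which overlap each other on opposite strands, no matches overlapped in the Hox windows. A match of letters is a description and not a binding site.

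The deposited levels of the Hox genes depend on a feature of the table that has to be stated before their order. The low values fall on whole multiples of what 1 read is worth, which gave effective library sizes of 28793666 reads in replicate 2 and 29941063 reads in replicate 1 and returned whole reads for 99.8% of the 16777 genes above 0. These sizes may include a normalisation factor. In the stretch of the table that holds the Hox genes, genes with 1 annotated transcript gave whole reads with the length of the gene 1 row above in 110 of 499 cases (22.0%) and with their own length in 9 of 533 (1.69%). Hoxa3 shows it exactly, since its values imply a length of 1775 bases, which is the annotated length of Hoxa2. Hoxa6 implies 1877 bases, the length of Hoxa5. Of the 18 members with reads, 14 imply a length within 10% of a transcript of the gene in the row above, and 4 a length that near to their own. Multiples of a fitting length also fit. Tried were the smallest fitting length and its multiples up to the RefSeq length of the gene in the row above. The one nearest the row above was taken for every member. For 3 of them (Hoxa10, Hoxb3 and Hoxc8) this was not the smallest fitting length. Over the other 15, where it was, the counts were 11 for the row above and 3 for their own. Because the choice leans towards the row above, these counts of members are no independent evidence for it.

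**Figure D1:**
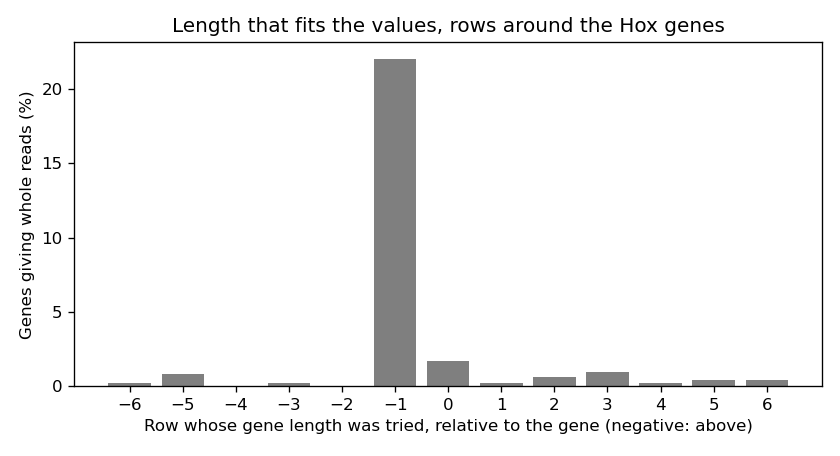
The bars give the percent of single-transcript genes (vertical axis) in the stretch of the table that holds the Hox genes whose values became whole read numbers when divided out with the annotated length of a gene a given number of rows away (horizontal axis, negative above). The bar 1 row above stands at 22.0% and no other bar exceeds 1.69%.

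Levels of different genes are therefore given here as rescaled RPKM, meaning the recovered reads divided by the gene's own length (its longest GENCODE vM21 transcript linked to a curated RefSeq RNA) and by the effective library size. Ratios between the libraries do not depend on the length. On the rescaled scale Hoxb4 was again the only one of 39 members at 1 or more in both libraries, against 44.1% of 22650 genes with a length. The deposited value is named wherever it is used. In bulk RNA, fewer cells of a type and less RNA per cell cannot be told apart.

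Hoxb4, a homeobox factor whose forced expression expands haematopoietic stem cells, was the most abundant member in both libraries on the rescaled scale. It had 231 reads in replicate 2 and 172 in replicate 1, or 3.13 and 2.24 rescaled RPKM, with a mean of 2.68 ± 0.628 (SD, n = 2). Its ratio of replicate 2 over replicate 1 was 1.40, with a 95% counting interval of 1.14 to 1.71. All such intervals are exact and cover counting error only, since the reads carry no molecular identifiers. Each side of such a ratio is 1 library, so it has no replicate check. Of the genes with a length, 38.9% stood higher than Hoxb4 in replicate 2 and 39.9% in replicate 1, so the most abundant Hox gene held a middle place among all genes.

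Hoxb3, its neighbour and also active in blood progenitors, had 57 reads in replicate 2 and 12 in replicate 1, or 0.621 and 0.126 rescaled RPKM. The ratio was 4.94, with an interval of 2.62 to 10.1. The values of Hoxb3 also allow 19 and 4 reads, and the interval is then 1.64 to 19.96 and overlaps that of Hoxb4, so the ratios of these 2 genes are not separated under both readings. Exons of Hoxb3 share 52.9% of their bases with the antisense gene Hoxb3os in GENCODE. The strand setting of the counting is not given in the sources used here, so reads of the pair cannot be told apart. In all, 16 of the 39 members share exon bases with another gene, and a similar limit holds for any reads they have. Among them are Hoxb2 (27.3%, also with Hoxb3os), Hoxa3 (27.1%), Hoxa7 (20.4%) and Hoxa9 (1.52%), whereas Hoxb4 shares none. Hoxb2, which patterns the hindbrain, had 9 reads in replicate 2, the smallest number its values allow, and was listed at 0 in replicate 1.

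The remaining Hoxb genes were at or next to 0. Hoxb9 had 1 read in replicate 2 and was listed at 0 in replicate 1. Hoxb1, a hindbrain gene, Hoxb5, a marker of long-lived stem cells in mouse marrow, Hoxb6, Hoxb7, Hoxb8, whose regulated form is used to immortalise myeloid progenitors, and Hoxb13, a gene of the tail and prostate, were listed at 0 in both. Reads of the Hoxb cluster thus came from its 2 to 4 end, apart from the single Hoxb9 read.

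Hoxa9, the partner of Meis1 in experimental myeloid leukaemia and a regulator of progenitor growth, had the highest ratio among members with reads in both libraries. It had 176 reads in replicate 2 and 2 in replicate 1, or 1.89 and 0.0207 rescaled RPKM. The ratio was 91.5, with an interval of 25.0 to 762. That interval overlaps the one of Hoxa3 (2.77 to 739). Ratios of members at 0 in replicate 1 have no upper limit, so the member that differed most cannot be named. It was the only member at least 2-fold higher in replicate 2 on the log2(RPKM + 1) scale of the deposited values, 1 of the 18 members above 0 in either library, against 3.62% of all such genes. That scale understates differences of low genes. With a pseudocount of 0.1 the count was 9 of 18, against 9.54% of all genes above 0 in either library, and with 0.01 it was 14, against 17.9%. With 0.01 a single read against none passes, as for Hoxb9, Hoxc4 and Hoxc9 (log2 ratios of 1.21, 1.28 and 1.30). These shares are not matched for read number, so nothing is read from the difference. In replicate 2, 42.6% of genes with a length stood higher than Hoxa9, and in replicate 1, 62.2% did.

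The other Hoxa genes were low. Hoxa3, needed for the thymus and parathyroid, had 17 reads in replicate 2 and 1 in replicate 1, or 0.228 and 0.0129 rescaled RPKM. Hoxa4 had 11 reads in replicate 2 and 3 in replicate 1, or 0.240 and 0.0629 rescaled RPKM, and its ratio of 3.81 had an interval of 1.01 to 21.3. Both genes lay higher in replicate 2, the interval of Hoxa4 only just clearing 1.

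A further 5 Hoxa genes had reads in replicate 2 and were listed at 0 in replicate 1. Hoxa5, a gene of lung and vertebral development that is also expressed in blood progenitors, had 25 reads, or 0.463 rescaled RPKM. Hoxa7, which is often raised together with Hoxa9 in MLL-rearranged leukaemia, had 17 reads, or 0.294 rescaled RPKM. The exact 95% interval of the ratio began at 6.54 for Hoxa5 and at 4.29 for Hoxa7, with no upper limit because replicate 1 had none. Hoxa6 had 7 reads (0.278 rescaled RPKM, interval from 1.499), and Hoxa10, a gene of the uterus and of early myeloid cells, had 8 (0.108 rescaled RPKM, interval from 1.77). The values of Hoxa10 also allow 4 reads, and the interval then begins at 0.686 and includes 1. Hoxa2, which patterns the pharyngeal arches, had 3 reads (0.0587 rescaled RPKM), and no fold is given at that number. For Hoxb2, with the smallest reads its values allow, the interval began at 2.05. Hoxa11 and Hoxa13, genes of the limb and urogenital tract, were listed at 0 in both libraries.

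**Figure D2:**
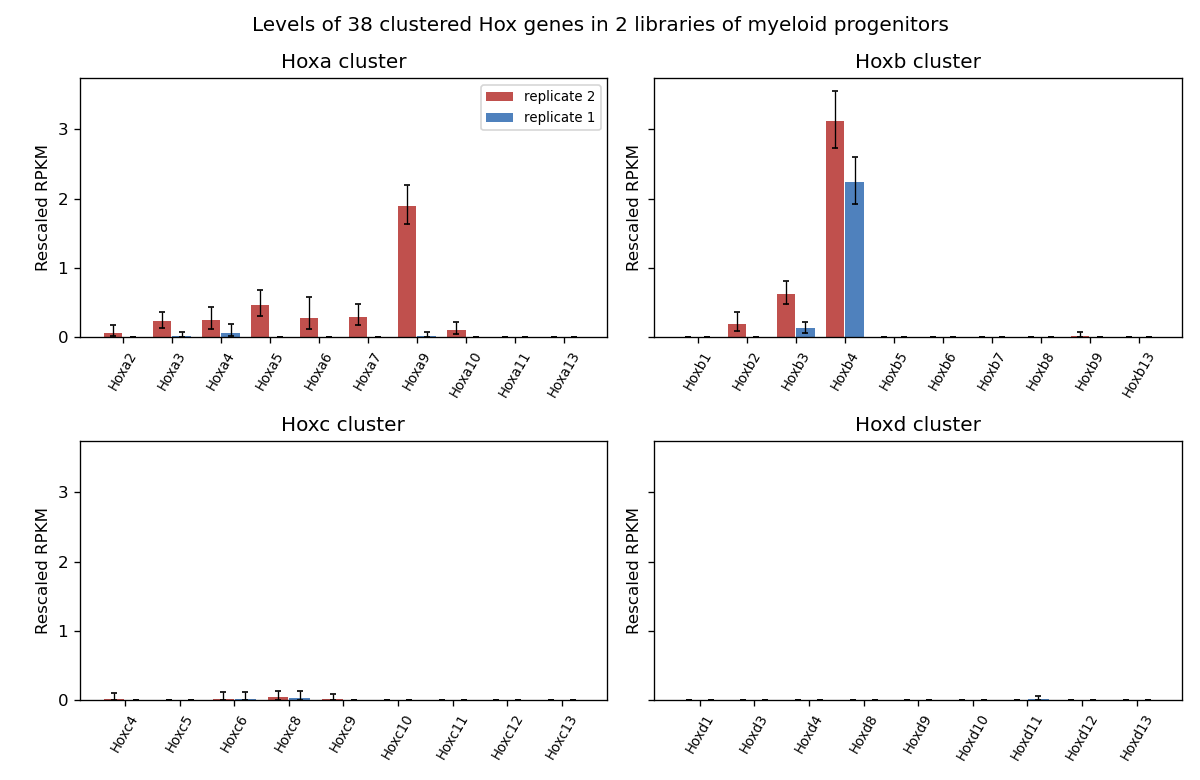
Bars give rescaled RPKM (vertical axis, from 0) of 38 clustered Hox genes (horizontal axis, 1 panel per cluster) in replicate 2 (red, left of each pair) and replicate 1 (blue), with 95% Poisson counting intervals on bars above 0. Hoxb4 stands at 3.13 in replicate 2 and 2.24 in replicate 1, Hoxa9 at 1.89 in replicate 2 and 0.0207 in replicate 1, and the Hoxc and Hoxd panels are nearly empty.

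Members above 0 in replicate 2 and listed at 0 in replicate 1 numbered 9 of 18, against 6.44% of all genes above 0 in either library. The reverse held for 1 of 18, against 3.11%. Genes with few reads fall to 0 in a library more often, and these shares are not matched for read number, so nothing is read from the difference. A listed 0 can also be a failed estimate in this table, since Hmgcs1, an enzyme of cholesterol synthesis that most cells use, is listed at 0 in both libraries.

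**Figure D3:**
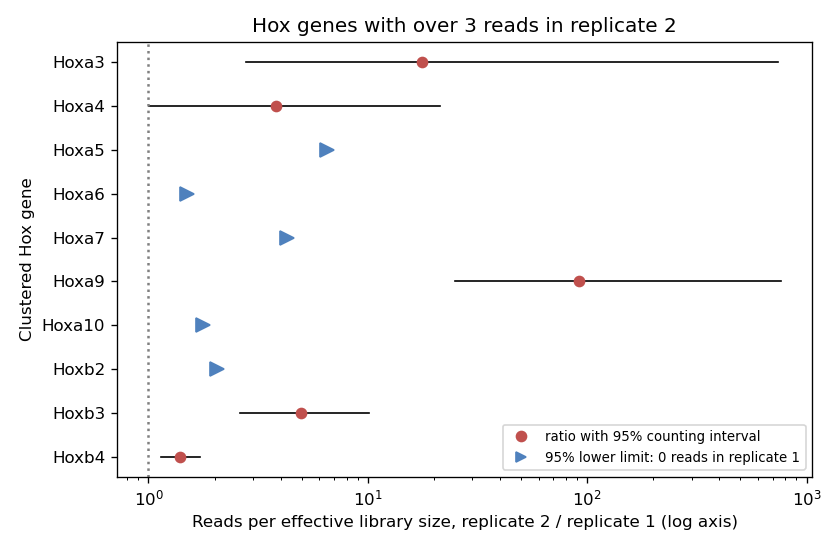
Points give the ratio of replicate 2 over replicate 1 (horizontal log axis) with its 95% counting interval for 5 Hox genes with reads in both libraries and more than 3 in replicate 2, and triangles the lower limit of that interval for 5 with none in replicate 1 (genes down the page). Among the points Hoxa9 lies farthest to the right at 91.5 and Hoxb4 farthest to the left at 1.40, and the dotted line marks equal libraries.

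The Hoxc genes had almost no reads. Hoxc8, a gene of thoracic vertebrae and motor neurons, had 2 reads in replicate 2 and 2 in replicate 1. Hoxc6 had 1 read in each library. Hoxc4 and Hoxc9 each had 1 read in replicate 2 and none in replicate 1. Hoxc5, Hoxc10, Hoxc11, Hoxc12 and Hoxc13, a gene of hair and nails, were listed at 0 in both. Of the Hoxd genes, Hoxd11, which shapes the forearm, had 1 read in replicate 1 and none in replicate 2. Hoxd1, Hoxd3, Hoxd4, Hoxd8, Hoxd9, Hoxd10, Hoxd12 and Hoxd13, the last of them a gene of the digits, were listed at 0 in both. For the 21 members at 0 in both libraries, the 3 reads that a count of 0 allows correspond to 0.0338 to 0.101 rescaled RPKM in a library, depending on the gene and the library.

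By cluster, Hoxa held 302 reads in replicate 2 and 15 in replicate 1, a ratio of 20.9 (12.5 to 37.9). Without Hoxa9 the counts were 126 and 13, and the ratio was 10.1 (5.69 to 19.5), so the difference was shared by other genes of the cluster. Hoxb held 298 reads in replicate 2 and 184 in replicate 1, a ratio of 1.68 (1.40 to 2.04). The intervals of the Hoxa and Hoxb ratios do not overlap, also with the smallest reads that fit (12.3 to 37.4 for Hoxa and 1.26 to 1.87 for Hoxb). Hoxc held 5 reads in replicate 2 and 3 in replicate 1, and Hoxd none in replicate 2 and 1 in replicate 1.

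Summed over members, rescaled RPKM was 4.15 in replicate 2 and 0.230 in replicate 1 for Hoxa, and 3.95 in replicate 2 and 2.36 in replicate 1 for Hoxb. With merged exon lengths the replicate 2 sums were 3.11 for Hoxa and 3.70 for Hoxb, and with the shortest transcripts 10.2 and 4.38, so their order in replicate 2 depends on the length. In replicate 1 Hoxb was higher under all 3 own lengths, with Hoxa between 0.214 and 0.301 and Hoxb between 2.33 and 2.45. The deposited RPKM sums were 5.81 in replicate 2 and 0.197 in replicate 1 for Hoxa, and 3.62 in replicate 2 and 1.79 in replicate 1 for Hoxb, so on that scale too Hoxa stood above Hoxb in replicate 2 and below it in replicate 1. All members together had 605 reads in replicate 2 and 203 in replicate 1, a ratio of 3.10 (2.64 to 3.65). Hoxb4 supplied 38.2% of them in replicate 2 and 84.7% in replicate 1. Hoxa9 supplied 29.1% in replicate 2 and 0.985% in replicate 1.

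By paralog group, genes 1 to 4 held 367 reads in replicate 2 and 197 in replicate 1, 231 and 172 of them from Hoxb4. Genes 5 to 8 held 52 in replicate 2 and 3 in replicate 1. Group 9 held 178 reads in replicate 2 and 2 in replicate 1, 176 and 2 of them from Hoxa9. Genes 10 to 13 held 8 reads in replicate 2 and 1 in replicate 1. In replicate 1 the reads were thus nearly all from the low-numbered end, most of them from Hoxb4. In replicate 2 group 9, nearly all Hoxa9, came next to that end.

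The order of the named members' levels in replicate 2 on the rescaled scale was Hoxb4, Hoxa9, Hoxb3, Hoxa5, Hoxa7, Hoxa6, Hoxa4, Hoxa3, Hoxb2, Hoxa10 and Hoxa2. Counting intervals separate Hoxb4 (2.74 to 3.56) from Hoxa9 (1.63 to 2.20), and Hoxa9 from Hoxb3 (0.470 to 0.804). Each later neighbour in the order overlaps the one before it. The order of the leading pair rests on the length chosen. Hoxb4 over Hoxa9 in replicate 2 was 1.65 with the longest curated transcripts and 2.85 with merged exon lengths, but 0.435 with the shortest protein-coding transcripts and 0.688 on the deposited values. In replicate 1 Hoxb4 (1.92 to 2.60) stood above Hoxb3 (0.0649 to 0.219), and its ratio over Hoxa9 was 28.5 or more under each of the 3 own lengths, so Hoxb4 led there in each case.

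Most clusters had abundant genes beside them. On the side of the Hoxa cluster away from Hoxa13 lie Skap2, Snx10 and Cbx3, which had 52.1, 28.3 and 260.9 rescaled RPKM in replicate 2 and 66.5, 25.0 and 280.4 in replicate 1. After Hoxa13 lie Hottip, Evx1 and 1700094M24Rik, which were listed at 0 in both. The Hoxa13 end, listed at 0, thus lay beside genes at 0. The ratios of Skap2 (0.783), Snx10 (1.13) and Cbx3 (0.931) were near 1, unlike that of the Hoxa cluster.

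Beside Hoxb, Ttll6 was listed at 0 in both libraries, Calcoco2 had 3 reads in each and Gm11529 1 read in replicate 2. Atp5g1, Skap1 and Snx11 had 29.6, 5.55 and 14.0 rescaled RPKM in replicate 2 and 44.0, 1.95 and 21.7 in replicate 1, and of these 3 genes Skap1 stood higher in replicate 2. Around the nearly silent Hoxc and Hoxd clusters other genes were abundant. Atp5g2 and Cbx5 beside Hoxc had 341.6 and 21.9 rescaled RPKM in replicate 2 and 340.7 and 26.2 in replicate 1. Calcoco1 had 7.96 in replicate 2 and 3.55 in replicate 1, Smug1 had 1.46 in replicate 2 and 1.53 in replicate 1, and Mir688 and D930007P13Rik were listed at 0. Beside Hoxd, Atp5g3, Mtx2 and Hnrnpa3 had 526.1, 14.4 and 77.3 in replicate 2 and 720.4, 17.6 and 94.7 in replicate 1, while Evx2, 4930441J16Rik and 9430019J16Rik were listed at 0.

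**Figure D4:**
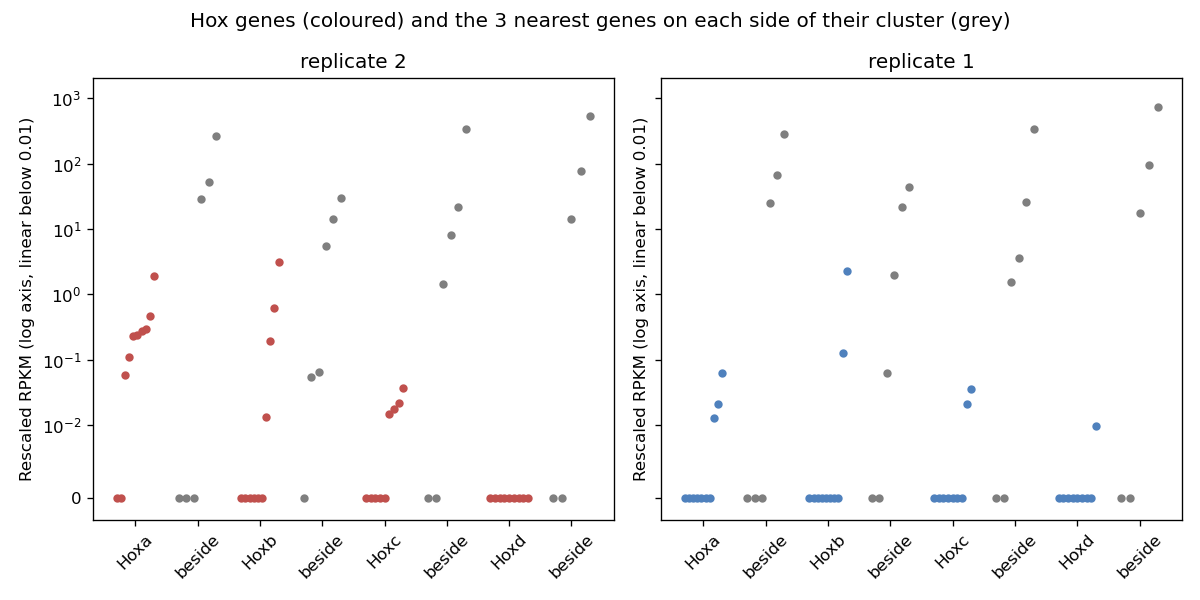
Points give rescaled RPKM (vertical log axis, linear below 0.01) of 38 Hox genes (coloured) and of the 3 nearest genes of the table on each side of each cluster (grey, for those with a length), with replicate 2 on the left and replicate 1 on the right. Hox genes reach 3.13 in replicate 2 and 2.24 in replicate 1, while several neighbours, such as Atp5g3 at 526.1 in replicate 2 and 720.4 in replicate 1, stand far above them.

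Noncoding transcripts of the clusters were mostly at 0, with an RNA of the Hoxa cluster as an exception. Of 28 listed, 14 were in the table and 12 of these were at 0 in both libraries, among them Hotair, Hottip and the miR-196 genes. Mira, a long noncoding RNA that RefSeq places between Hoxa6 and Hoxa7, had 36 reads in replicate 2 and 1 in replicate 1, a ratio of 37.4 (6.30 to 1519). Its reads are the smallest numbers that its values allow, and no own length was used for it. Mir10a, in the Hoxb cluster, had 1 read in each library. Short RNAs are poorly captured by this kind of library.

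The cofactors of HOX proteins were present in both libraries. Of 11 TALE genes, 8 were at 1 rescaled RPKM or more in both (6 on the deposited scale). Meis1 stood at 2.30 in replicate 2 and 2.37 in replicate 1, with a ratio of 0.974 (0.807 to 1.17), far from the interval of Hoxa9. On the deposited scale, where the length used for Meis1 is that of another row, it reads 10.9 in replicate 2 and 11.2 in replicate 1. Pbx2 was the most abundant, at 34.0 rescaled RPKM in replicate 2 and 37.6 in replicate 1. Pbx3, a partner of Hoxa9 and Meis1 in leukaemia, stood at 2.01 in replicate 2 and 4.90 in replicate 1, a ratio of 0.410 (0.339 to 0.494), opposite in direction to Hoxa9. Pknox2 also stood lower in replicate 2, at 3.43 against 12.9 in replicate 1.

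The chromatin regulators of Hox genes were abundant in both libraries. Of 15 activators of the MLL type in the table, 14 were at 1 rescaled RPKM or more in both, the exception being Mllt3, at 1.45 in replicate 2 and 0.847 in replicate 1. Kmt2a, which encodes MLL, had 3.47 in replicate 2 and 3.98 in replicate 1, and its partner Men1 had 19.2 in each. The 3 highest by deposited RPKM were Rbbp5, Hcfc1 and Aff1, at 16.0, 22.7 and 12.3 rescaled RPKM in replicate 2 and 19.8, 25.8 and 12.0 in replicate 1. Of 26 Polycomb genes, 25 were at 1 or more in both, the exception being Cbx2, at 1.78 in replicate 2 and 0.825 in replicate 1. Ezh2, the main methyltransferase of the complex, had 29.6 in replicate 2 and 36.6 in replicate 1, and Bmi1 had 9.08 in replicate 2 and 14.4 in replicate 1. Rbbp4, Rbbp7 and Mtf2 stood at 58.1, 65.9 and 18.3 in replicate 2 and 79.2, 99.6 and 25.9 in replicate 1.

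Of 17 genes of the CDX and retinoid routes, which act on Hox genes in the embryo, 6 were at 1 rescaled RPKM or more in both libraries. Cdx1, Cdx2, Cdx4 and Crabp1 were listed at 0 in both. Rara, a retinoic acid receptor gene, had 36.5 in replicate 2 and 14.4 in replicate 1, Rxrb had 29.9 in replicate 2 and 28.0 in replicate 1, and Gmnn, a cell cycle gene, had 100.8 in replicate 2 and 130.3 in replicate 1. Cyp26a1, which breaks down retinoic acid and was chosen after its values were seen, had 71 reads in replicate 2 and 9 in replicate 1, a ratio of 8.20 (4.09 to 18.7).

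Low values also held for the homeobox genes most related to the Hox genes. Of 23, 17 were listed at 0 in both libraries, whereas 16777 of all 23988 genes were above 0 in either. Gbx2 alone was at 1 rescaled RPKM or more in both, at 3.50 in replicate 2 and 3.36 in replicate 1. Nkx2-3 had 22 reads in replicate 2 and none in replicate 1, and Dlx3 had 6 in replicate 2 and 2 in replicate 1. Of 18 other homeobox genes known from blood cells, 13 were at 1 or more in both. Hhex stood at 36.0 in replicate 2 and 36.2 in replicate 1, Cux1 at 10.7 in replicate 2 and 7.96 in replicate 1, and Adnp at 29.3 in replicate 2 and 35.7 in replicate 1. Every clustered Hox gene stood below these 3 unclustered homeobox genes in both libraries.

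Markers of mast cells and of monocytes and macrophages were higher in replicate 2, while those of granulocytes and progenitors were mixed. The share of all genes higher in replicate 2 was not computed. Over all genes above 0 in either library, the median log2 ratio of replicate 2 over 1 was 0.01 with a pseudocount of 1. All 12 mast cell markers were higher in replicate 2, with a summed level of 1362 rescaled RPKM there and 242.3 in replicate 1. The 3 highest on the deposited scale, the mast cell protease genes Cpa3, Mcpt2 and Cma1, had 508.2, 300.5 and 243.9 rescaled RPKM in replicate 2 and 202.2, 3.71 and 4.10 in replicate 1. All 16 monocyte and macrophage markers were higher in replicate 2, with sums of 5755 in replicate 2 and 1917 in replicate 1. On the deposited scale Lyz2, Ly6c2 and F13a1 led this list, and their ratios were 4.19, 1.43 and 10.1. The order differs on the rescaled scale. There Cd68, at 228.0 in replicate 2 and 94.8 in replicate 1, stood above F13a1, at 130.2 in replicate 2 and 12.9 in replicate 1. The 12 granulocyte markers, genes of the labelled myeloid lineage, were all at 1 or more in both libraries. They were led on the deposited scale by S100a9, S100a8 and Ngp, and summed to 87542 rescaled RPKM in replicate 2 and 115576 in replicate 1. Of these, 4 were higher in replicate 2, and without S100a8 and S100a9 the sums were 14664 in replicate 2 and 14350 in replicate 1. Of 20 stem and progenitor markers, led on the deposited scale by Gata2, Myb and Cd93, 12 were higher in replicate 2, so their directions were mixed. Their sums were 335.0 in replicate 2 and 236.2 in replicate 1, and that list holds Hoxb4 and Meis1 themselves. Kit, the SCF receptor of progenitors and mast cells, had 15.8 in replicate 2 and 12.8 in replicate 1. Flt3, a receptor of early progenitors that was chosen after its values were seen, had 201 reads in replicate 2 and 17 in replicate 1. The part of cell makeup in the Hox differences was not tested.

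Markers of other cell types were partly at 0 in both libraries, and their part in the Hox values was not tested either. Stromal cells of bone express many Hox genes, and of 20 stromal markers 9 were listed at 0 in both libraries, Dcn, Lum, Cxcl12, Twist1, Twist2, Postn, Sparc, Sp7 and Alpl. For comparison, 16777 of all 23988 genes were above 0 in either library. The genes said here to lead a list were picked on the deposited scale, and their order can differ on the rescaled scale. Runx2, Pdgfrb and Lepr led the stromal list in this way. On the rescaled scale Tagln, at 2.98 in replicate 2 and 3.04 in replicate 1, stood above Lepr, at 1.82 in replicate 2 and 1.97 in replicate 1. Stromal markers summed to 13.1 rescaled RPKM in replicate 2 and 14.8 in replicate 1. Endothelial markers summed to 68.4 in replicate 2 and 56.0 in replicate 1, led by Pecam1, Vwf and Egfl7 and with Emcn and Sox17 at 0. B cell markers summed to 9.23 in replicate 2 and 4.20 in replicate 1, led by Cd79b, Blnk and Cd79a, with Pax5, Ebf1, Ms4a1, Rag1 and Rag2 at 0. T and NK cell markers summed to 78.6 in replicate 2 and 47.1 in replicate 1, led by Nkg7, Cd3d and Cd2. Nkg7 alone held 75.5 of that sum in replicate 2 and 44.4 in replicate 1, and Cd3e, Cd4 and Ncr1 were at 0. Erythroid markers summed to 124.3 in replicate 2 and 155.1 in replicate 1, over 8 of 10 genes with a length. Tfrc, Gata1 and Epor led that list, with Tfrc alone at 105.2 in replicate 2 and 141.6 in replicate 1. The haemoglobin genes Hba-a1, Hbb-b1 and Hbb-b2, which have near-identical copies, were listed at 0.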

How the data were processed

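The authors deposited RPKM values of both libraries in 1 table, and the number in each column name gave the replicate. Per the submitters' processing notes, Trimmomatic 0.32, TopHat2, HTSeq and edgeR were used on mm9. Not given in the sources used here: tool settings, annotation, strand handling and gene lengths. Of 24015 rows, 27 with names in the form of dates were left out. Read numbers were recovered from the steps of the values (345 genes gave the size of replicate 1 and 371 that of replicate 2). A length fitted if each value above 0 came within 0.0002 reads of a whole number. A small allowance growing with read number and length was added. Multiples of a fitting length also fit, and were tried up to the RefSeq length of the gene in the row above. The one nearest the GENCODE vM21 length of that gene was used. This changed Hoxa10, Hoxb3 and Hoxc8, whose smallest numbers were lower. On simulated data for 1464 genes, 99.5% returned whole reads and 98.4% the true length or a divisor of it. Intervals of ratios are exact at 95%. Log2 ratios used a pseudocount of 1. The members and lists were chosen with earlier results of these data known. Every Hox gene is named except 1, which is not reported here and is counted only in totals; of other lists, the 3 highest by deposited RPKM, members behind counts of at most 5, and Meis1, Pbx3, Kmt2a, Men1, Ezh2 and Bmi1. Other thresholds, pseudocounts, lengths and single libraries were tried. Work was done in Python 3.11.15 with numpy 2.4.6, pandas 2.3.3 and scipy 1.17.1.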

Additional observations from a re-analysis of the deposited data

How the results depend on the processing

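The count of Hox genes at the threshold in both libraries was 1 at 1 and at 0.5 RPKM and 3 at 0.1 RPKM, and 1 to 3 with single libraries. The count above 0 in both was 8, and 9 to 17 with single libraries. With single libraries the summed deposited RPKM ran from 0.197 to 5.81 for Hoxa, 1.79 to 3.62 for Hoxb, 0.0542 to 0.0853 for Hoxc and 0 to 0.0181 for Hoxd. The Hoxc sum was 0.0697 and fell to 0 when members under a mean of 0.1 RPKM were left out. Over Hox genes above 0 in either library, the median log2 ratio (replicate 2 over 1) was 0.16 with a pseudocount of 1, 0.97 with 0.1, 2.15 with 0.01 and 0.53 over members at a mean of 0.1 RPKM or more. The same medians over all genes were 0.01, 0.02, 0.03 and -0.01. The count at least 2-fold higher was 1 with a pseudocount of 1, 9 with 0.1 and 14 with 0.01. The shares of all genes above 0 in either library were 3.62%, 9.54% and 17.9% in that order. Neither these shares nor the medians over all genes are matched for read number, so nothing is read from the differences. All 36 log2 ratios tried under other pseudocounts moved. Their direction could not reverse, because adding the same pseudocount to both libraries keeps the sign. Rescaling to own lengths was chosen after seeing the data and changed the mean level of Hoxb4 to 2.68, against 1.85 deposited. For Hoxa9 the mean was 0.958 with the longest curated, 0.554 with merged and 3.63 with the shortest own length, against 1.58 deposited, and the Hoxa sum was 2.19, 1.66 and 5.25 on those own lengths, against 3.003 deposited. Smallest fitting reads, also tried after seeing the data, gave cluster ratios of 20.7 for Hoxa and 1.54 for Hoxb. The cause of these shifts was not tested, apart from the pseudocount and the filter, which act on low values by construction. No paired analysis was possible because there is 1 group.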

Other observations

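The lengths behind the deposited RPKM values did not stand in 1 fixed relation to the rows. In the first stretch of the table, down to 9930111J21Rik1, genes with 1 annotated transcript gave whole reads with their own length in 53 of 102 cases. From A330035P11Rik to Klrk1 the length 1 row above gave them in 110 of 499 cases, and from Lrrc32 onward the length 2 rows above did in 137 of 354. Other offsets gave at most 2.36% in any stretch. The cause was not tested.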
